A study of Mus musculus with 12 samples.

Results

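The data described here are the 2772 junctions between 5′Sμ and Sγ3 found after LPS/αIgD-dextran stimulation of splenic B cells, of 53012 junctions in the whole series. Sγ3 was taken as the 20-kb stretch of chromosome 12 from 114595001 to 114615000 in the AJ851868/mm9 hybrid genome, and every junction listed there in the 6 LPS/αIgD-dextran libraries was a member. Of these, 2127 came from the 3 WT libraries (567, 681 and 879) and 645 from the 3 libraries labelled 3CBEsD (176, 217 and 252), in which the 3′IgH CBEs, a set of CTCF-binding elements at the downstream end of the IgH locus, were deleted on both alleles. Primary mature splenic B cells of both genotypes were AID-proficient and were stimulated for 96 h with LPS, a Toll-like receptor agonist, and dextran-bound αIgD, which crosslinks the B cell receptor. The cells came from RDBC chimeras, whose mature B cells are all of donor ES cell origin, here the 129/SV-derived TC1 line, and the number of ES cell clones is not given in the sources used here. The sources used here do not tie a library to an animal, so p-values of the exact permutation and sign-flip tests measure the spread between these libraries, and those of Fisher's exact test on pooled junctions cover counting error only. The other 6 libraries of the series, from the same genotypes under αCD40/IL4, held 15 Sγ3 junctions in all, 3, 4 and 3 in WT and 2, 2 and 1 in deleted cells, which is 0.0922% ± 0.0106 and 0.0889% ± 0.0118 of the junctions in the IgH window (SD, n = 3).

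B cells change antibody class by cutting 2 switch regions, long repeats that precede the constant genes, and fusing them. Sμ is the usual upstream partner, and Sγ3 is the switch region of IgG3. The breaks start where AID deaminates cytosines in transcribed switch DNA, most often in short motifs such as AGCT, which reads the same on both strands. CSR-HTGTS-seq starts from a bait at 5′Sμ and reports, for each junction, the first base of the joined sequence, called the prey. A deletional junction continues in the direction of the gene and loses the DNA between the breaks, as productive switching does, whereas an inversional junction turns the prey around. Joints are made by end joining, either with no shared base (blunt), across a few bases that both ends share (microhomology), or with added bases (insertion).

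The IgH genes here read on the minus strand, so higher coordinates lie upstream. Sγ3 was located by the 5′ end of the constant gene below it, listed as AI324046 (ENSMUSG00000076615.2, IG_C_gene) at 114597876 to 114599443 in mm9, whose 5′ end matches base 114601769 of the hybrid genome. Distances are given upstream of this base. The longest unbroken run of bases covered by aligned preys had 4755 bases, from 114602218 to 114606972, in which 2681 junctions (96.7%) lay, and no exon of the mm9 annotation lies in the part of mm9 that this run matches. On the sense strand the run held 39.4% G, 25.7% A, 18.2% T and 16.6% C, with 109 copies of AGCT or 22.9 per kb. Among shifts of 10 to 200 bases the run resembled itself most at 48 bases, where 36.6% of bases were identical against a median of 29.0%. The run differs from mm9, since between bases 114602102 and 114605145 the hybrid genome is 239 bases longer than mm9.

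The sequence around the most used positions is shown to let the repeats be read, from chr12:114604151-114604350 of the hybrid genome, minus strand, with each AGCT in capitals. These 200 bases held 10 copies of AGCT and 275 junctions (9.92% of Sγ3), 207 in WT and 68 in deleted cells. The 70 bases of the bait in which most Sμ ends of these joints lay are chr12:114669160-114669229, minus strand, with 1985 of the 2772 bait ends (71.6%).
Sγ3 stretch: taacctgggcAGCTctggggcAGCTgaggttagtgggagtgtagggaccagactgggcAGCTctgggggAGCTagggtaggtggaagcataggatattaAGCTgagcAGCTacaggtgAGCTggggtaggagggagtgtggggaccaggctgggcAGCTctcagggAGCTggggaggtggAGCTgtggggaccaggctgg
5′Sμ bait stretch: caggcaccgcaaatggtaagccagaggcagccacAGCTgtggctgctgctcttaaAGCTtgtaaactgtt

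Joints are shown to make the classes of joint concrete, 1 for each genotype and class, at the prey position with most deletional joints of that class and, where positions tied, the lowest. Each reads from Sμ on the left into Sγ3 on the right with 24 bases of each side; capitals mark the last bait and first prey base of a blunt joint, the shared base of a microhomology, or the inserted bases.
WT blunt: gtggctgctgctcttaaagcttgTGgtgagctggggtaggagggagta
3′IgH CBEs-deleted blunt: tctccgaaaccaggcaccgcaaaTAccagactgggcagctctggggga
WT microhomology: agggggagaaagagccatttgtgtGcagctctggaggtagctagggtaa
3′IgH CBEs-deleted microhomology: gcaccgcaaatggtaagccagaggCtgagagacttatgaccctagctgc
WT insertion: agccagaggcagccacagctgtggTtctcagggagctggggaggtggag
3′IgH CBEs-deleted insertion: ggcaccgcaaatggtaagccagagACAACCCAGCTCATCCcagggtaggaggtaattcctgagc
The WT insertion joint adds 1 T and enters Sγ3 at base 114604192, which is the T of an AGCT in the stretch printed above. The deleted insertion joint adds 16 bases. The deleted microhomology joint enters at base 114599579, which lies downstream of the whole annotated constant gene and had 2 such joints. Only 1.62% of Sγ3 junctions lay at or below the 5′ end of this gene, so this joint is not typical of them.

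The 6 libraries held 2653 to 8261 junctions, of which 2087 to 6097 lay in the 300-kb IgH window used as denominator. WT replicates 2 and 3 shared more junctions than other pairs: 113 Sγ3 junctions with the same prey base, orientation, bait end and overlap occurred in both (17.1% of the 660 distinct ones in replicate 2 and 13.2% of the 857 in replicate 3), against 0% to 1.21% of the smaller list in the other 14 pairs. Replicate 1 of both genotypes came from 1 sequencing run, and replicates 2 and 3 of both from another. With the shared junctions left out of WT replicate 3, the differences between genotypes below became -6.06 points for the Sγ3 share, 215 bases for the median position, 9.18 points for the 1-kb bin that gained, 2.65 points for the inversional share, 4.45 points for the insertion share and 4.68 points for the share at the T of AGCT, and the libraries still did not overlap in any of these 6.

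Sγ3 took a smaller share of the IgH junctions in deleted than in WT cells. It held 14.4%, 13.8% and 14.4% of the window in WT and 8.43%, 7.65% and 8.52% in deleted libraries, means of 14.2% ± 0.364 and 8.20% ± 0.478 (SD, n = 3), so that the deleted level was 57.7% of WT. No deleted library reached the lowest WT library (exact permutation test, two-sided, p = 0.1, which is as low as 3 against 3 libraries can go, and 0.25 adjusted over the 10 measures compared). Pooled, these were 2127 of 14970 and 645 of 7881 junctions. Among the 7 named regions of the window, 85.7% had shares that did not overlap between the genotypes. The direction depended on the denominator. Of window junctions outside Sμ, 23.8% of the WT and 25.9% of the deleted ones lay in Sγ3 and the libraries overlapped. Of the Sγ3, Sγ2b and Sγ2a junctions alone these shares were 24.3% and 29.3%, without overlap. In the latter set Sγ2a held 904, 1139 and 1386 junctions in WT but 71, 102 and 96 in deleted libraries.

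Within Sγ3 the remaining junctions of deleted cells lay further upstream. The 1-kb bin from 114605001 to 114606000 held 27.5%, 28.6% and 27.9% of Sγ3 junctions in the WT libraries and 38.1%, 36.9% and 36.5% in the deleted ones. Its mean thus rose from 28.0% ± 0.572 to 37.1% ± 0.817. The bin next but one downstream, 114603001 to 114604000, went the other way, with 16.9%, 15.3% and 16.7% in WT and 5.68%, 12% and 8.33% in deleted libraries, and the bin below that, 114602001 to 114603000, fell from 3.38% ± 0.431 to 0.936% ± 0.790. Between these, the fullest bin, 114604001 to 114605000, had means of 44.0% ± 1.49 (WT) and 45.2% ± 1.54 (deleted), and its libraries overlapped (p = 0.5, exact permutation test). The bin furthest upstream with at least 5% of the junctions, 114606001 to 114607000, held 5.58% ± 0.824 and 5.33% ± 3.11, also with overlap.

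As a share of their own region, 3 of the 8 Sγ3 bins tested were called, 1 higher and 2 lower, against 23.0% of the 61 bins tested over the window (9.84% higher and 13.1% lower). A bin was called where its libraries did not overlap and Fisher's exact test on pooled junctions, which covers counting error only, passed after adjustment. This share was examined after the data had been seen. As a share of the window, 5 of the 8 Sγ3 bins were called, all lower in deleted cells, where 24.6% of the 61 bins were called lower and 52.5% in either direction. The bin 114603001 to 114604000 fell from 2.32% ± 0.186 to 0.702% ± 0.219 of the window. The fullest bin fell from 6.24% ± 0.147 to 3.71% ± 0.327 and the bin above it from 3.98% ± 0.0367 to 3.05% ± 0.202 of the window.

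**Figure D1:**
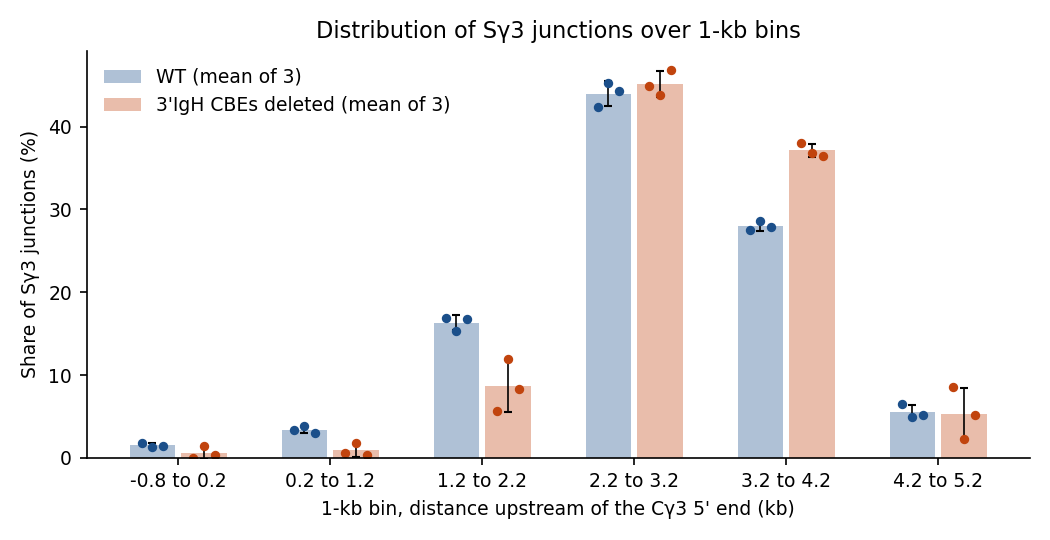
Share of each library's Sγ3 junctions (y, percent) in 1-kb bins by distance upstream of the 5′ end of the constant gene (x, kb), as means with SD of 3 libraries and a point per library. In the deleted libraries the bin upstream of the fullest one is higher (37.1% against 28.0%). The next bins downstream of the fullest one, 114603001 to 114604000 and 114602001 to 114603000, are lower. The points overlap in the fullest bin and in the outermost bins.

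The median Sγ3 junction lay 2862, 2890 and 2856 bases upstream of the constant gene in the WT libraries and 3143.5, 2973 and 3100.5 bases in the deleted ones, a shift of 203 bases without overlap (exact permutation test, p = 0.1). The distributions differed more on the downstream than on the upstream side. Over pooled junctions the 5th percentile lay at 1182 bases in WT and 1741 bases in deleted cells, and the lower quartile at 2312 and 2548 bases, whereas the upper quartile was 3628 and 3744 bases and the 95th percentile 4338 and 4289 bases. Among preys of at least 100 aligned bases the shift was 230 bases and the libraries overlapped (p = 0.2, exact permutation test). Prey length itself differed between the genotypes, with a median of 99, 96 and 98 aligned bases in WT and 90.5, 91 and 90.5 in deleted libraries, without overlap, and its part in the differences between genotypes was not tested. Only 45 junctions (1.62%) lay at or below the 5′ end of the constant gene. The boundaries of Sγ3 carried almost none: 2 junctions lay in the last 2 kb inside the lower boundary and 3 in the 2 kb outside it, and 1 on each side of the upper boundary.

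At finer scale the junctions formed a main peak and a second one upstream, with a gap between them. In 250-base bins, 209 to 350 junctions fell into each bin from 2 to 3.25 kb upstream, 81 into the bin from 3.25 to 3.5 kb, 350 into the next and 287 into the one after. The gap was present in every library, where this bin held 2.29% to 2.94% of Sγ3 junctions in WT and 2.84% to 5.99% in deleted cells. It held 8 copies of AGCT, against 8 to 11 in the other bins from 2 to 4 kb. In the gap, 30.4% of 50-base sequences occurred more than once in the run, and in the bin just below it 15.2% did, whereas none did in the other 16 bins examined. The part of repeated sequence in the placing of preys there was not tested. Downstream of the main peak, the 6 bins from 0.5 to 2 kb held 1 or 2 copies of AGCT and 12 to 78 junctions each.

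**Figure D2:**
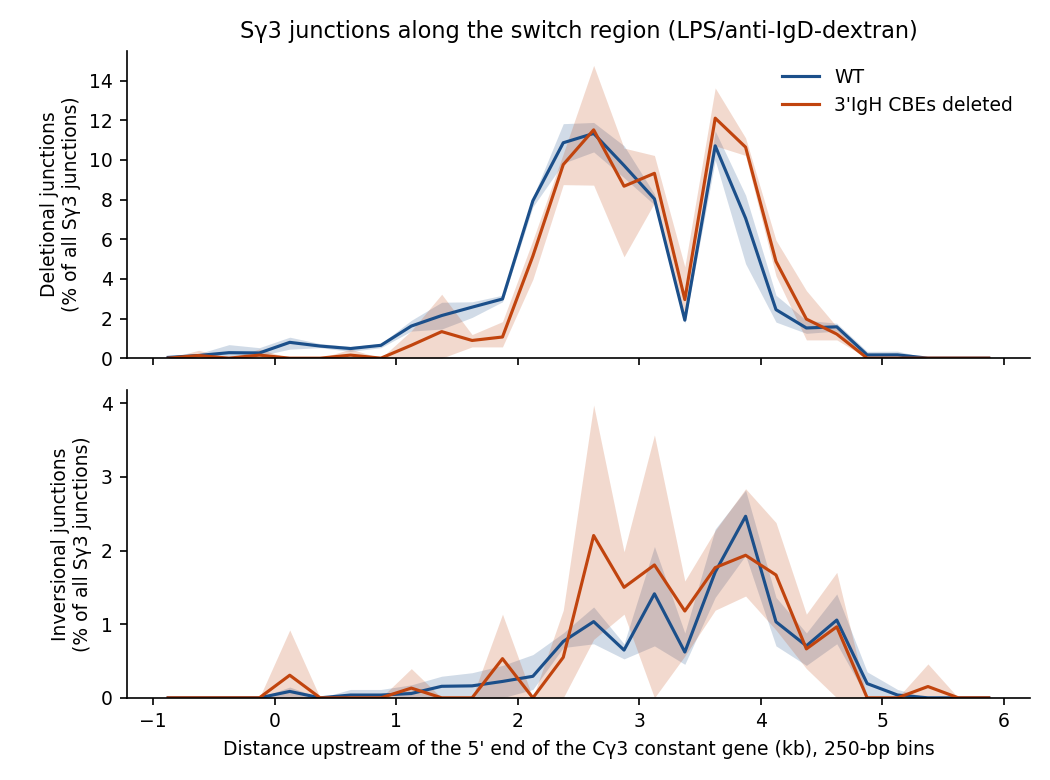
Deletional (top) and inversional (bottom) Sγ3 junctions per 250-base bin (y, percent of all Sγ3 junctions of a library) by distance upstream of the 5′ end of the constant gene (x, kb), with lines for the mean of 3 libraries and bands from the lowest to the highest library. Deletional junctions form 2 peaks around a gap at 3.25 to 3.5 kb, and the mean of the deleted libraries is below that of WT from 1 to 2.5 kb and above it from 3.5 to 4.25 kb.

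Most Sγ3 junctions were deletional, and the inversional ones were concentrated upstream. Inversional junctions made up 13.1%, 13.2% and 12.9% of Sγ3 in WT libraries and 16.5%, 13.4% and 17.1% in deleted ones, means of 13.0% ± 0.180 and 15.6% ± 1.99. The libraries did not overlap (exact permutation test, p = 0.1), but the lowest deleted library exceeded WT replicate 2 by only 0.148 points and the pooled counts, 277 of 2127 against 101 of 645, did not pass (Fisher's exact test, p = 0.0889, adjusted 0.207). Counting each prey base once per library gave 14.8% and 16.0%, and preys of at least 100 bases gave 12.4% and 12.9%, both with overlap.

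Along Sγ3 the inversional share was uneven near the constant gene in WT and rose upstream from base 114603501. At 114601501 to 114602000 the WT share was 8.33% of 24 junctions. It was 4% of 25, 4.35% of 46 and 6.93% of 101 in the next bins upstream. In WT it was 4.47% of 246 junctions at 114603501 to 114604000, 10.4% of 431 at 114604501 to 114605000, 25.7% of 292 at 114605501 to 114606000 and 35.6% of 104 at 114606001 to 114606500 (Wilson 95% intervals 2.51% to 7.83%, 7.90% to 13.7%, 21.0% to 31.0% and 27.0% to 45.1%). In deleted cells the same bins held 6.82% of 44, 16.4% of 140, 18.4% of 125 and 30.3% of 33. The median inversional junction lay upstream of the median deletional one in 6 of 6 libraries, by 1007.5, 671.5 and 907.5 bases in WT and by 601, 241.5 and 430 bases in deleted libraries (exact sign-flip test over 6 libraries, p = 0.031, adjusted 0.0938 over 3 regions). In Sγ2b the same difference was 79.7 ± 239 bases and was positive in 4 of 6 libraries, and in Sγ2a 207 ± 186 bases and positive in 5 of 6.

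The distance between the inversional and deletional medians was smaller in deleted cells, 424 ± 180 bases against 862 ± 173 in WT, without overlap (exact permutation test, p = 0.1). The inversional medians themselves overlapped, 3730.5, 3484.5 and 3623 bases upstream of the constant gene in WT and 3710, 3185 and 3481 in deleted libraries. The deleted ones rested on 29, 29 and 43 inversional junctions. The deletional medians did not overlap, 2723, 2813 and 2715.5 bases in WT and 3109, 2943.5 and 3051 in deleted libraries. The genotypes differed in opposite directions along the region. In the fullest 1-kb bin the inversional share was 7.92%, 9.42% and 8.97% in WT and 11.4%, 12.6% and 16.1% in deleted libraries, a difference of 4.61 points without overlap. Upstream of it, from 114605001, the share was 26.5%, 21.7% and 22.8% in WT and 21.7%, 16.3% and 21.3% in deleted libraries, 3.93 points lower and again without overlap, although WT replicate 2 and deleted replicate 1 both round to 21.7%. Downstream of it the libraries overlapped, 5.21% ± 2.73 and 8.82% ± 5.24. The 3 parts were drawn after the profile had been seen.

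**Figure D3:**
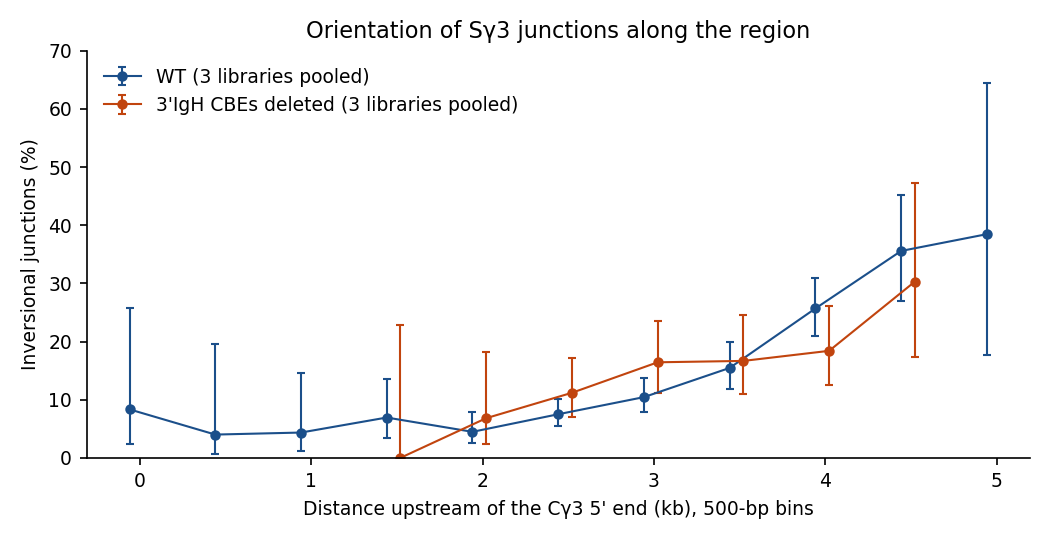
Share of inversional junctions (y, percent) in 500-base bins with at least 10 junctions by distance upstream of the 5′ end of the constant gene (x, kb), with the 3 libraries of a genotype pooled and Wilson 95% intervals. The WT share is 8.33% in the bin at the 5′ end of the constant gene, 4.47% at 114603501 to 114604000 and 38.5% in the bin furthest upstream. From 114603501 the share climbs upstream in both genotypes. The intervals overlap in every bin in which both genotypes have a point.

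Some Sγ3 bases were used repeatedly, and most of those used most often were at the same place in AGCT. The 2772 junctions had 1782 distinct prey bases and orientations, of which 1177 (66.0%) were used once. The bases used most were 114604192 and 114604278, with 11 deletional junctions each, and 114604337 with 9, each found in 5 of 6 libraries. Base 114604192 had 3, 1 and 5 junctions in the WT libraries and 0, 1 and 1 in the deleted ones, base 114604278 had 4, 2 and 2, then 2, 0 and 1, and base 114604337 had 2, 3 and 2, then 1, 1 and 0. They joined to 9, 11 and 7 different bait ends, so some of the junctions at 114604192 and 114604337 shared a bait end and those at 114604278 did not. All 3 are the T of an AGCT on the sense strand, as were 8 of the 10 bases used at least 7 times.

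Over the 109 copies of AGCT in the run, deletional preys started at the T 242 times, or 222 per 100 copies. At the other places from 14 bases before to 20 bases after the start of the motif there were 45.9 to 131 deletional junctions per 100 copies, and the neighbours of the T, the C before it and the base after it, had 67.9 and 86.2. The average over all bases of the run was 48.7. Inversional junctions had their largest numbers, 23.9 per 100 copies, at the A of AGCT and 3 bases before it, against an average of 7.66, and 9.17 at the T. The A is the base that pairs with the T of the copy on the other strand.

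Of deletional junctions, the share at the T of AGCT was 9.86%, 8.15% and 9.55% in WT libraries and 17.1%, 11.8% and 12.6% in deleted ones. The means were 9.19% ± 0.911 and 13.8% ± 2.88. Such bases were 1.41% of the 9364 covered Sγ3 positions over which these shares were taken. They were 2.29% of the run, in which all junctions at the T lay. The libraries did not overlap (exact permutation test, p = 0.1, adjusted 0.15 over 12 comparisons of this kind), as was so in 75.0% of the 4 regions examined. With preys of at least 100 bases the shares were 8.34% and 9.34% and overlapped. The share was higher in Sγ3 than in Sγ2b in 6 of 6 libraries, 11.5% ± 3.18 against 7.82% ± 0.772, and than in Sγ2a in 6 of 6, where it was 6.17% ± 1.79 (exact sign-flip test over 6 libraries, p = 0.031 each, adjusted 0.0938). In Sμ it was 10.0% ± 0.934 and the direction differed among libraries (exact sign-flip test over 6 libraries, p = 0.281). The T of AGCT made up 1.51% of covered positions in Sγ2b, 1.54% in Sγ2a and 3.38% in Sμ, and the shares were not adjusted for this. This place in the motif was singled out after the data had been seen.

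The joints at the T of AGCT were unlike the others in structure. Of 533 deletional joints with an insertion, 133 (25%) entered Sγ3 at such a T, against 61 of 525 blunt joints (11.6%) and 48 of 1321 joints with microhomology (3.63%). The insertion joints had the higher share in 6 of 6 libraries, 26.3% ± 5.83 against 12.4% ± 2.30 for blunt and 4.72% ± 2.66 for microhomology joints (exact sign-flip test over 6 libraries, p = 0.031 each, adjusted 0.0938). Of the joints at the T, 55.0% carried an insertion. By class, the share at the T overlapped between genotypes in insertion joints, 23.7% ± 5.32 in WT and 28.9% ± 6.04 in deleted libraries. It also overlapped in blunt joints, 11.4% ± 2.38 and 13.4% ± 2.15 (exact permutation tests, p = 0.4 and 0.3). Only in microhomology joints did the libraries not overlap, 2.74% ± 1.21 and 6.70% ± 2.10 (exact permutation test, p = 0.1, adjusted 0.15). The order of the classes was not particular to Sγ3. Pooled over both genotypes, insertion, blunt and microhomology joints had shares at the T of 20.7%, 8.70% and 2.70% in Sγ2b. In Sγ2a these were 15.7%, 6.09% and 2.64%, and in Sμ 23.0%, 11.2% and 4.62%. A microhomology moves the first prey base back into shared sequence, so its position is set by the aligner. In a joint with an insertion bait and prey do not overlap, although an inserted base matching the adjoining genome is counted as prey. Single bases inserted before the T were A in 29, T in 24 and G in 12 of 65 joints. A C there could not be scored as inserted, as it would match the C of AGCT and be counted as prey.

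**Figure D4:**
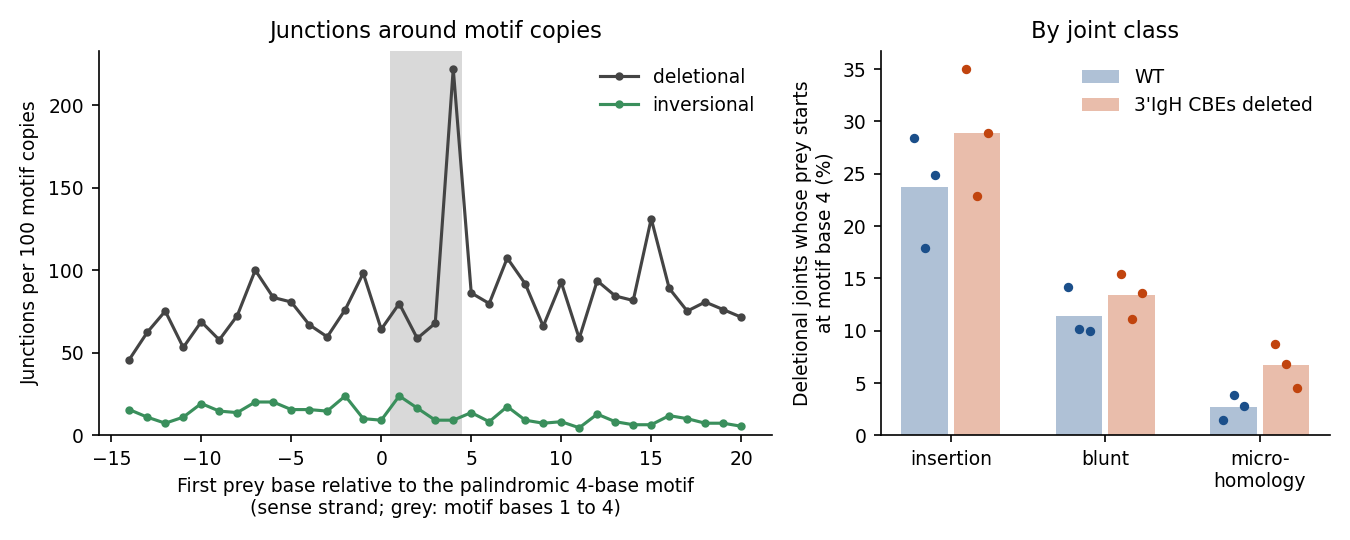
Left, Sγ3 junctions per 100 motif copies (y) by the place of the first prey base relative to the motif on the sense strand (x, bases; grey marks the 4 motif bases). Right, share of deletional joints entering Sγ3 at the fourth motif base (y, percent) by class of joint, with bars for the mean of 3 libraries and a point per library; it peaks at 222 per 100 copies on the left, and insertion joints have the highest shares on the right.

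The wider motifs DGYW/WRCH covered 38.6% of the run on either strand (D is any base but C, H any but G, W is A or T, Y is C or T, R is A or G), with AGCT among their sequences. They held 50.2%, 48.0% and 55.1% of junctions in the run in WT and 56.4%, 51.4% and 52.2% in deleted libraries. The genotypes overlapped (51.1% ± 3.61 and 53.4% ± 2.66, exact permutation test, p = 0.4). Bases of AGCT alone covered 9.17% of the run and held 18.6% ± 1.93 of WT and 24% ± 3.55 of deleted junctions, also with overlap.

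Of the 3 classes of joint, only the insertion share did not overlap between the genotypes, and it did not pass a test after adjustment. The microhomology share was 56.4% ± 0.934 for WT and 55.3% ± 3.36 for deleted libraries and the blunt share 23.0% ± 1.42 and 19.5% ± 3.23, and the libraries of the genotypes overlapped in both (exact permutation tests, p = 0.7 and 0.2). Insertions were found in 19.2%, 19.7% and 23.1% of joints in WT and in 25%, 25.8% and 25% in deleted libraries, means of 20.7% ± 2.12 and 25.3% ± 0.466 without overlap (exact permutation test, p = 0.1, adjusted 0.25). Pooled, these were 446 of 2127 and 163 of 645 joints (Fisher's exact test, p = 0.0226), which did not pass after adjustment (0.0791). The insertion share and the inversional share were the 2 of 6 joint measures that did not overlap in Sγ3, where 45.8% of the 24 such measures over 4 regions did not, a share no higher than this background. The insertion share was also higher in deleted libraries without overlap in Sγ2b, 18.2% ± 0.632 and 20.3% ± 0.637. In Sγ2a it was 18.9% ± 2.07 and 24.4% ± 3.82, again without overlap, whereas in Sμ the libraries overlapped. The inversional share rose without overlap in Sγ2b too, 8.88% ± 0.642 and 11.6% ± 0.986, and overlapped in Sγ2a and Sμ.

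Microhomologies averaged 2.18, 2.30 and 2.33 bases in WT and 2.28, 2.34 and 2.45 bases in deleted libraries, which overlap (p = 0.4, exact permutation test). Within replicate numbers the deleted library was longer each time, by 0.0945, 0.0444 and 0.116 bases (mean 0.0851, p = 0.25, exact sign-flip test, the smallest that 3 pairs allow). By length, 1-base insertions rose from 8.04% ± 1.25 to 11.3% ± 1.56, microhomologies of 1 base fell from 23.8% ± 1.34 to 20.4% ± 1.98 and those of 3 bases rose from 7.82% ± 1.45 to 10.3% ± 0.455, each without overlap, which are 3 of the 9 classes in Sγ3 (exact permutation test, p = 0.1 each) against 16.7% of the 36 classes over 4 regions.

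**Figure D5:**
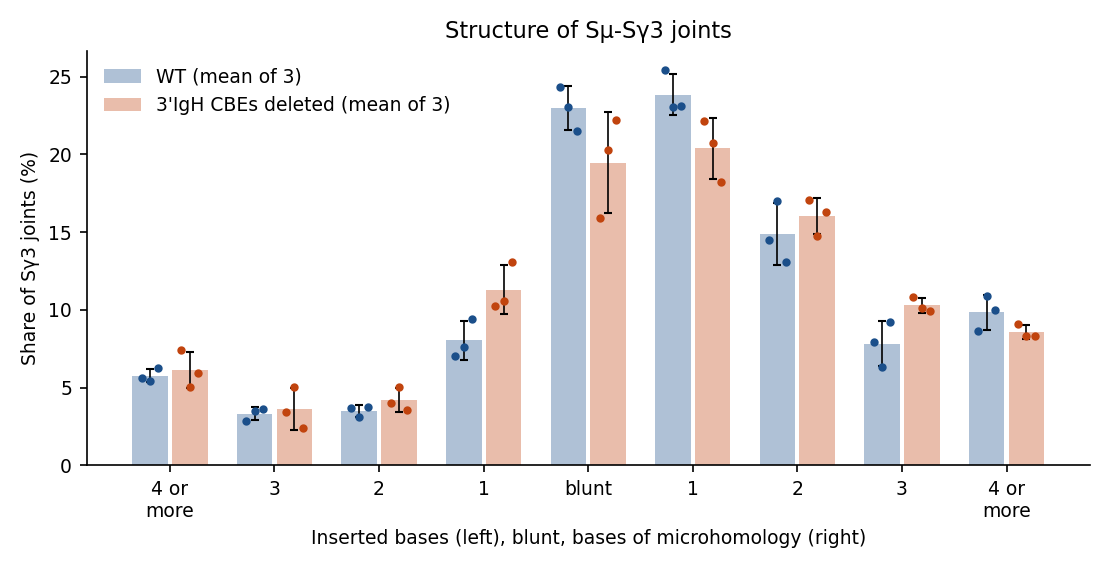
Share of Sγ3 joints (y, percent) by number of inserted bases, blunt, or number of bases of microhomology (x), as means with SD of 3 libraries and a point per library. Blunt joints and microhomologies of 1 base are the fullest classes in both genotypes, and insertions of 1 base are higher in the 3 deleted libraries.

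Of 266 microhomologies of at least 4 bases, 64 (24.1%) contained AGCT, and the most frequent were GCTG in 14 joints, AGCT and AGCTG in 12 each, CCAG in 11 and AGGC and CAGCT in 10 each. The longest had 17 bases. Among the inserted bases, single ones were A or T in 74.9% of 175 WT and 74.3% of 74 deleted joints. The longest insertion had 30 bases. Of 65 insertions of at least 10 bases, 18 were found letter for letter in the covered part of Sμ, 3 in that of Sγ3, and 44 in neither.

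Compared with Sγ2b in the same libraries, Sγ3 had more insertions, 23.0% ± 2.87 against 19.2% ± 1.25, more inversional junctions, 14.3% ± 1.90 against 10.2% ± 1.65, and fewer blunt joints, 21.2% ± 2.94 against 24.5% ± 1.49, each in 6 of 6 libraries (exact sign-flip tests over 6 libraries, p = 0.031 each, adjusted 0.0625 over 6 measures). Against Sγ2a only the inversional share differed in 1 direction in 6 of 6 libraries, 9.64% ± 3.34 in Sγ2a (p = 0.031, adjusted 0.188, exact sign-flip test). Sμ joints had more inversions than Sγ3, 22.5% ± 0.838, and longer microhomologies, 2.40 ± 0.0617 against 2.31 ± 0.0875 bases, in 6 of 6 libraries (exact sign-flip tests over 6 libraries, p = 0.031 each, adjusted 0.0938). Sγ3 preys were also shorter, with a median of 94.2 ± 3.96 aligned bases against 126 ± 6.87 in Sγ2b and 114 ± 11.9 in Sγ2a. Among preys of at least 100 bases, only the blunt share of Sγ3 stayed below that of Sγ2b in 6 of 6 libraries, and no measure differed from Sγ2a in 1 direction. The part of prey length in these differences was not tested.

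Within Sγ3, inversional joints carried fewer insertions than deletional ones, 19.4% ± 3.8 against 23.6% ± 3.29, lower in 6 of 6 libraries, and kept more of the bait, a median of 85.3 ± 7.01 against 75.6 ± 3.07 bases, higher in 6 of 6 (exact sign-flip tests over 6 libraries, p = 0.031 each, adjusted 0.0781 over 5 measures). On the Sμ side, joints kept a median of 76, 78 and 79 bait bases in WT and 76.5, 72 and 78 in deleted libraries, which overlap. The bait end used most, base 114669194, was found in all 6 libraries and had 94 of the 2772 Sγ3 joints (3.39%).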

How the data were processed

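Junctions were mapped by CSR-HTGTS-seq. The authors amplified from a 5′Sμ primer by linear amplification-mediated PCR, sequenced in pairs, aligned to mm9 carrying AJ851868 with their pipeline (Bowtie2 is named in the submitters' processing notes) and removed duplicates. The deposited lists hold 1 row per junction with positions, strand, alignment bounds and read sequence, and no normalization or score was used. Other PCR losses and the placing of preys in repeats affect counts and positions, and intervals cover counting error only.

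Junctions on chromosome 12 from 114595001 to 114615000 were taken without further filtering. The denominator was the junctions from 114400001 to 114700000. Overlap was the bait end minus the prey start plus 1, positive for microhomology, 0 for blunt and negative for insertion. Sequence was rebuilt from aligned prey bases (10647 positions, 0 conflicts) and matched to NCBIM37 with GENCODE vM1.

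Groups came from the labels. Genotypes were compared with exact permutation tests (two-sided), and a difference was called where no library of 1 genotype lay within the range of the other, and regions by exact sign-flip tests over the 6 libraries, called if all had the same sign. Bins of 1 kb with at least 5 junctions were compared by Fisher's exact test on pooled junctions, called at a Benjamini-Hochberg adjusted p under 0.05 without overlap. Deviations of same-numbered libraries had correlations of 0.444, 0.279 and 0.473 over 8 shares. These alone do not show that replicate numbers pair libraries, so a fit paired by number was only an alternative. Other alternatives were bin size, denominators, each position counted once, preys of at least 100 bases, deletional junctions, a microhomology minimum, shared junctions and leaving out each library. Named 1-kb bins were those called as a share of Sγ3 or holding at least 5% of Sγ3 junctions, so not every bin called as a share of the window is named. Named bases were the most used, and named lengths of insertion or microhomology were those without overlap. Members and lists were chosen with earlier results of these data known. Bin calls were tested on simulated data. Python 3.11.15, numpy 2.4.6, pandas 2.3.3 and scipy 1.17.1 were used.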

Additional observations from a re-analysis of the deposited data

Results flagged for a closer look

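Under αCD40/IL4, WT replicate 2 held 4 Sγ3 junctions among 3830 in the window (0.104%, Wilson 95% interval 0.0406% to 0.268%). This was above the 3 junctions that a count of 0 allows (0.0783%), a limit that lies within the interval. WT replicates 1 and 3 held 3 Sγ3 junctions each. The comparisons between genotypes did not use these libraries.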

How the results depend on the processing

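Differences are deleted minus WT, in percentage points unless stated. The Sγ3 share turned to 2.10 with junctions outside Sμ as denominator and to 5.00 with Sγ3, Sγ2b and Sγ2a. With each position counted once, the inversional share lost its call (1.19), and the fullest bin (3.76) and mean microhomology length (0.112 bases) gained one. With preys of at least 100 bases, the median position (230 bases), the inversional share (0.564) and the share at the T of AGCT (0.998) lost theirs, mean microhomology length (0.162 bases) gained one and median bait length reversed to 2 bases. Calling microhomology from 2 bases put joints with a single shared base among the blunt ones. The share of these together differed by -6.96, which was then called. The same setting reversed the microhomology share (2.36) and mean length (-0.0562 bases). Deletional junctions alone gave a called microhomology share of -1.61. With the replicate block, mean microhomology length was called (0.0851 bases), and no other call changed. The cause of these changes was not tested.

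Bins called over the window were 32 of 61, against 56 of 92 at 500 bases and 18 of 40 at 2 kb, and in Sγ3 5 of 8, against 9 of 14 and 3 of 7. Measures that differed from Sγ2b in all libraries fell from 3 to 1 with preys of at least 100 bases, and from Sγ2a from 1 to 0. The 1 measure called against Sγ2a, the inversional share, does not exist among deletional junctions alone, so that setting could not test it. Among single measures of Sγ3 minus Sγ2a, deletional junctions reversed bait length (-0.500 bases), and preys of at least 100 bases reversed the microhomology share (0.258) and mean length (0.0833 bases). Against Sγ2b the same preys reversed the microhomology share (1.25) and bait length (-0.500 bases).

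Without 1 library at a time, the differences ran from -6.22 to -5.73 for the Sγ3 share, 167 to 253 bases for the median, 1.88 to 3.73 for inversional, 3.88 to 5.82 for insertion, -4.87 to -1.72 for blunt -3.02 to 0.134 for microhomology and 0.729 to 4.25 for motif shares, 0.0382 to 0.124 bases for mean microhomology length, 8.68 to 9.46 for the bin above the fullest and 3.01 to 5.69 for the T of AGCT. Calls were gained for blunt joints without WT replicate 3 (-4.23) or deleted replicate 3 (-4.87), for the motif share without WT replicate 3 (4.25), and for the microhomology share (-3.02) and mean length (0.124 bases) without deleted replicate 1. Against Sγ2b the microhomology share ran from -1.77 to 0.103, and against Sγ2a blunt joints ran from -1.34 to 0.531 and bait length from -0.300 to 2.20 bases.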
